A study of Mus musculus with 8 samples.

Results

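A set of 10 genes of the negative feedback on MAP kinase signalling were described: 7 MAP kinase phosphatases (Dusp1, Dusp2, Dusp4, Dusp5, Dusp6, Dusp10 and Dusp16) and 3 Sprouty inhibitors (Spry1, Spry2 and Spry4). They were taken by gene symbol from the authors' table of gene-wise changes, where all 10 carried both a log2 fold change and a p-value, among 48404 genes listed and 19294 with a p-value. The samples were RNA-sequencing libraries of microvessels, the small blood vessels isolated from the brain, from wild type mice of strain C57BL6. There were 4 libraries from mice with transient middle cerebral artery occlusion (tMCAO), a stroke model in which a filament closes a large brain artery and is then withdrawn, and 4 from sham-operated mice. Not given in the sources used here are the age and sex of the mice, the length of the occlusion and the time of sampling.

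The values were the authors' results for the whole comparison, one log2 fold change and one p-value per gene. In the table used here, 0 columns held values per library. Levels in single libraries, their spread, overlap between the groups and sequencing depth were therefore not analysed here. A positive value was taken to mean higher after tMCAO, because the injury genes Il6 and Hmox1 carried log2 fold changes of 5.92 and 3.81 by the authors' deposited table, whose header names no numerator. The deposited p was read as Benjamini-Hochberg adjusted, and the error given with a fold change is a standard error implied by that p on a normal scale. Since no label ties the libraries to separate mice, the p-values measure only the spread among these libraries, which may be technical. A microvessel preparation is a bulk sample, in which fewer cells of a type and less RNA per cell cannot be told apart.

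MAP kinases are switched on by phosphorylation of a threonine and a tyrosine in their activation loop, and the dual-specificity phosphatases of the MAP kinase phosphatase family remove both phosphates. Many of these phosphatases are themselves transcribed in response to the kinases they switch off, so that their mRNAs are used as a readout of recent signalling. Sprouty proteins act higher up, between growth factor receptors and the kinase ERK, and are known as brakes on vessel sprouting driven by fibroblast and vascular endothelial growth factors.

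Promoters from RefSeq (build GRCm38.p6), each from 250 bases before to 50 bases after the transcription start, were matched for 8 of the 10 genes, all but Dusp4 and Spry4. The promoters of Dusp2, Dusp5 and Spry1, 3 of the 4 genes that rose after tMCAO, are printed, and that of Dusp1 is printed because it is a textbook immediate early gene of the same family that was not called. Capitals mark matches on either strand to the motifs searched. The cyclic AMP response element was searched as TGACGTCA and as its core, TGACG, which lies inside it. The site of ETS factors was searched as AGGAAGT and the E-box, a site of helix-loop-helix factors, as CACGTG. The CArG box bound by serum response factor, the AP-1 site and the TATA box were searched as well.
Dusp2 (chr2:127335909-127336208, plus strand): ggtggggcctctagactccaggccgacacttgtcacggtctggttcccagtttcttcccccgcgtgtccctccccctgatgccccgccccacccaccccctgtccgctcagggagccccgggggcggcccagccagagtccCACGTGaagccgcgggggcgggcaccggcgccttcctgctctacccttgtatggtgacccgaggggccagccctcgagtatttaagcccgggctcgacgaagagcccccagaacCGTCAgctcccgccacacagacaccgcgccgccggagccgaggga
Dusp5 (chr19:53528895-53529194, plus strand): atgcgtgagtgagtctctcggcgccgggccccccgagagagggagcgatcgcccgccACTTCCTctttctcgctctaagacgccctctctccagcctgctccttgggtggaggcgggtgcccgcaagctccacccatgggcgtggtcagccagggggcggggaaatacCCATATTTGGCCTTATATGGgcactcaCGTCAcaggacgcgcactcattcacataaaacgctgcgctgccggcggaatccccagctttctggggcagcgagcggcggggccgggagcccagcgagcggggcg
Spry1 (chr3:37639697-37639996, plus strand): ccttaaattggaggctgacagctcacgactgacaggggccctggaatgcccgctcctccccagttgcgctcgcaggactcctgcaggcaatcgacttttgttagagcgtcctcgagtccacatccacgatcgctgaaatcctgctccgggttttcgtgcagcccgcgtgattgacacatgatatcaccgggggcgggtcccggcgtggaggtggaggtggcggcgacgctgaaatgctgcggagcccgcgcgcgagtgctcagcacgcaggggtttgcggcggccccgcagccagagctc
Dusp1 (chr17:26508423-26508722, minus strand): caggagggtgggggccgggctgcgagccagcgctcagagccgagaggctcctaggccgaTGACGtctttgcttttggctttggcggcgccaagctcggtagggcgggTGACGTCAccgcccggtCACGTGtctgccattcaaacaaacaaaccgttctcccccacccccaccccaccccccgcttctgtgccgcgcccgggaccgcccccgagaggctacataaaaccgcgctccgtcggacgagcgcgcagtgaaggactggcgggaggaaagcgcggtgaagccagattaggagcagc

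The Dusp5 window held 2 CArG boxes side by side, from -82 to -73 and from -72 to -63, counted from the start base as +1. A CArG box was present in 1.63% of all 32851 promoters in the table, and 2 or more were present in 6 of them (0.0183%). Dusp5 also held a match to the ETS letters, present in 9.35% of all promoters. The core TGACG was in 4 of the 8 promoters, those of Dusp1, Dusp2, Dusp5 and Dusp16, and in 20.8% of all promoters. Dusp1 was the only one of the 8 promoters with the full TGACGTCA, from -143 to -136, present in 1.79% of all promoters, and it shared CACGTG (7.15% of all promoters) with Dusp2. Spry1 held none of the marked motifs in this window. The AP-1 site, TGANTCA, was in none of the 8 and in 7.81% of all promoters. The TATA box, searched as TATAAA, was likewise in none of the 8 and in 13.6% of all promoters. The GC box, GGGCGG, which is not marked by capitals, was in 6 of the 8 and in 35.7% of all promoters. The 8 windows were rich in G and C, from 57.3% in Dusp6 to 70.7% in Dusp2, against a median of 52.7% over all promoters. Such matches describe the letters only, and no binding was measured.

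After tMCAO, Dusp2, Dusp5, Spry1 and Spry4 were higher by the authors' deposited table, and the other 6 genes did not pass an adjusted p of 0.05. Thus 4 of the 10 genes rose and 0 fell by the authors' values, for which the submitters' processing notes name DESeq2, against 15.2% of all tested genes called higher and 17.6% called lower (32.8% in either direction). At an unadjusted p under 0.05, recovered from the deposited one, the counts were 4 higher and 1 lower. The share of all tested genes at that threshold was not counted, and the shares above hold for the adjusted p only. It is above the 32.8% given for either direction, since an unadjusted p is never larger than its adjusted p. The counts at the unadjusted p are therefore not read as an excess over all genes. The log2 fold change was positive for 9 of the 10 genes and its median was 0.42, while over all tested genes 49.9% were positive and the median was -0.0008. The range ran from -0.44 for Dusp4 to 1.83 for Dusp2. The centre of the deposited values is close to the median tested gene. Centred instead on 80 ribosomal protein genes, of which 76 rose, every value would lie 0.90 lower on the log2 scale. Dusp2 alone would then be called higher, and Dusp4, Dusp6, Dusp10 and Spry2 would be called lower. With that centre, 331 of all 19294 tested genes would be called higher and 14972 lower. Of the 10 values, 6 (Dusp1, Dusp6, Dusp10, Dusp16, Spry1 and Spry2) would change sign to negative.

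**Figure D1:**
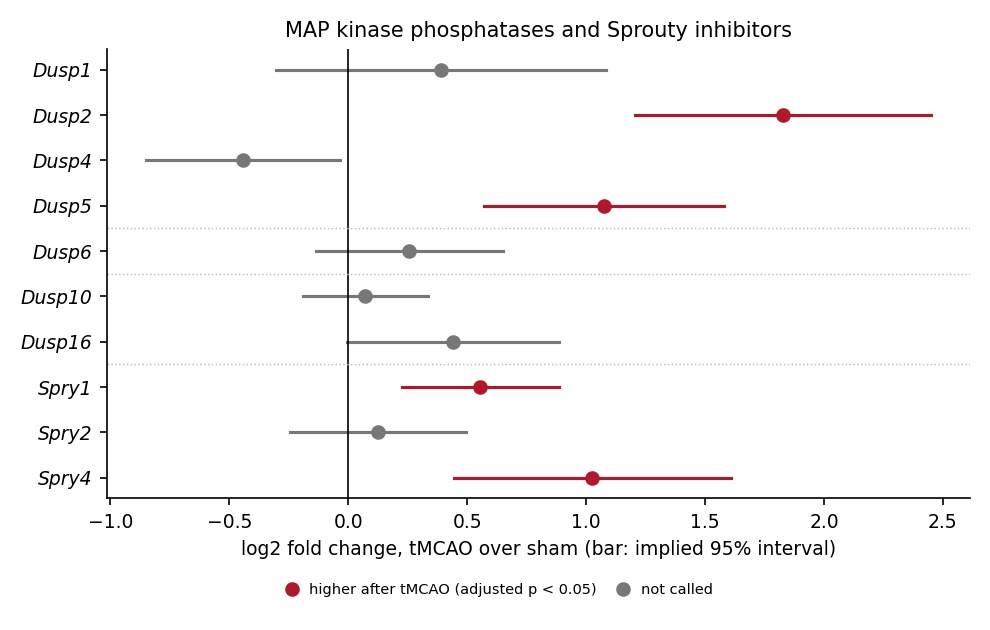
Log2 fold change of the 7 phosphatases and 3 Sprouty genes, tMCAO over sham (x axis, log2 units), with bars for the implied 95% interval and dotted lines between the functional classes. Dusp2, Dusp5, Spry1 and Spry4 (red) passed an adjusted p of 0.05, and the grey genes did not.

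Among the nuclear phosphatases that are made on demand, Dusp2 changed most. Dusp2, known as PAC-1 and best known from activated leukocytes, was 3.55-fold higher after tMCAO by the authors' deposited table (log2 fold change 1.83, 95% interval 1.21 to 2.45, implied standard error 0.32, adjusted p = 4.69e-07). Its fold change stood at percentile 98.7 of all tested genes. Dusp5, a nuclear phosphatase that acts on ERK alone and can anchor it in the nucleus, was 2.11-fold higher by the authors' deposited table (log2 fold change 1.07, 95% interval 0.57 to 1.58, implied standard error 0.26, adjusted p = 0.000334). It stood at percentile 95.8.

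The other nuclear phosphatases did not pass. Dusp1, the founding member, which acts mainly on p38 and JNK, had a log2 fold change of 0.39 by the authors' deposited table, with the widest implied standard error of the 10 genes, 0.35, and an adjusted p of 0.42. Its 95% interval, from -0.31 to 1.09, includes both no change and the size seen in Dusp5. Dusp4, which acts on ERK and JNK, was the only gene of the set with a negative value, a log2 fold change of -0.44 by the authors' deposited table (95% interval -0.85 to -0.03, adjusted p = 0.089). That interval does not overlap those of Dusp2 and Dusp5, though the difference between the genes was not tested.

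Dusp6, the cytoplasmic phosphatase specific for ERK and a common marker of ERK activity, was not called. Its log2 fold change was 0.26 by the authors' deposited table (95% interval -0.14 to 0.65, adjusted p = 0.34). That interval overlaps the one of Dusp5, and the difference between the genes was not tested. The phosphatases that prefer JNK and p38 were not called either. Dusp10 was the most precisely measured of the 10 genes, with an implied standard error of 0.13 and a log2 fold change of 0.07 by the authors' deposited table (95% interval -0.19 to 0.33, adjusted p = 0.72). Dusp16 had a log2 fold change of 0.44 by the authors' deposited table (95% interval -0.005 to 0.89, adjusted p = 0.12).

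**Figure D2:**
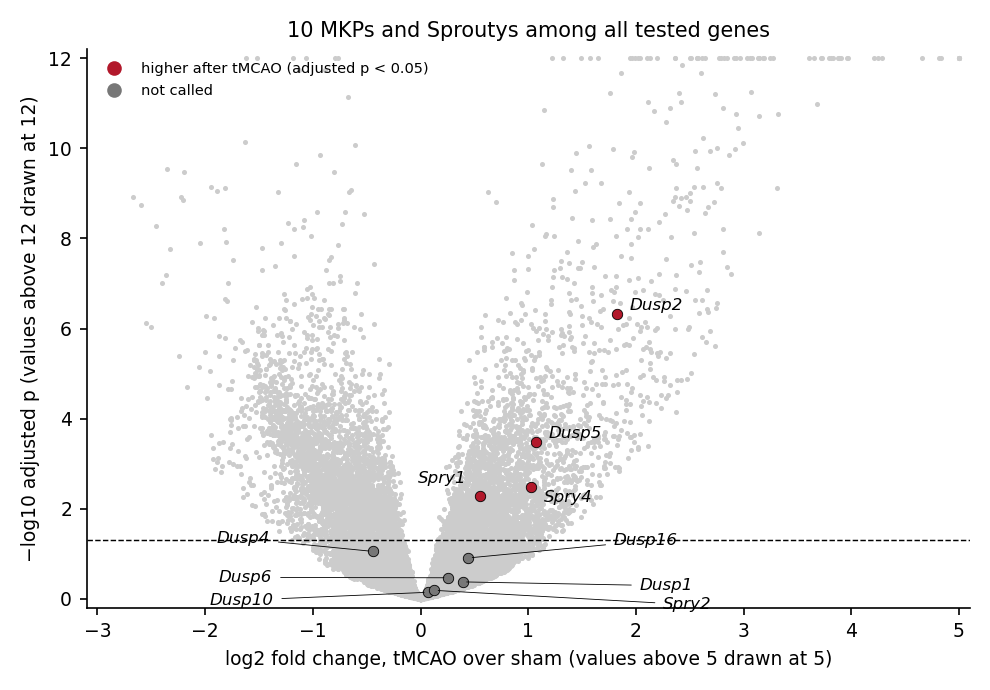
Log2 fold change, tMCAO over sham (x axis), against −log10 adjusted p (y axis) for the 19294 tested genes (light grey) with the 10 genes named; the dashed line is an adjusted p of 0.05. Dusp2 stands highest of the 10, at an adjusted p of 4.69e-07, and 6 genes lie below the line.

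Among the Sprouty genes, Spry4 and Spry1 were called higher and Spry2 was not called. Spry4, which blocks Ras and Raf activation downstream of growth factor receptors, was 2.04-fold higher after tMCAO by the authors' deposited table (log2 fold change 1.03, 95% interval 0.44 to 1.61, implied standard error 0.30, adjusted p = 0.00337). Spry1 was 1.47-fold higher by the authors' deposited table (log2 fold change 0.56, 95% interval 0.23 to 0.88, implied standard error 0.17, adjusted p = 0.00514). Spry2 had a log2 fold change of 0.13 by the authors' deposited table (95% interval -0.24 to 0.50, adjusted p = 0.65). The interval of Spry2 overlaps those of Spry1 and Spry4, and the differences between these genes were not tested.

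Of the 4 genes that rose, Dusp2, Dusp5 and Spry4 had a log2 fold change of at least 1, a combination reached by 4.78% of all tested genes in the upward direction and 4.94% in the downward. In a normal test for a log2 size beyond 1 that used the implied standard errors, none of the 10 genes passed (1 had an unadjusted p under 0.05, Dusp2 with an adjusted p of 0.35), against 0.726% of all tested genes called higher and 0.0674% called lower. If the deposited fold changes are shrunken towards 0, a gene would pass this test less easily. In the GENCODE M21 annotation of GRCm38, Dusp2 lies on chromosome 2 from 127336159 to 127338376, Dusp5 on chromosome 19 from 53529109 to 53542431, Spry1 on chromosome 3 from 37639947 to 37644598 and Spry4 on chromosome 18 from 38586247 to 38601415. An antisense gene, AC137853.2, shares 22.1% of the exon bases of Dusp5, and Gm42922, an unclassified transcript on the opposite strand with a log2 fold change of 0.29 and no p-value by the authors' deposited table, shares 24.4% of those of Spry1. Not given in the sources used here is whether counting used strand, so reads from these pairs cannot be told apart. Dusp2 overlapped no annotated gene, and the genes inside Spry4 shared 0 of its exon bases.

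The closest relatives outside the set were lower or not called. Among the remaining MAP kinase phosphatases, Dusp8, which acts on JNK and p38 and is abundant in brain, was 1.61-fold lower after tMCAO by the authors' deposited table (log2 fold change -0.69, adjusted p = 0.00606, implied standard error 0.21). Dusp7, a cytoplasmic ERK phosphatase, stood at a log2 fold change of -0.22 (adjusted p = 0.092), Dusp9 at 0.68 (adjusted p = 0.2) by the authors' deposited table. Spry3 was 2.14-fold lower by the authors' deposited table (log2 fold change -1.10, adjusted p = 0.00697, implied standard error 0.34), while Spry1 and Spry4 were higher. The Spred genes, whose proteins share the Sprouty domain and recruit neurofibromin to Ras, were not called, with log2 fold changes of -0.03 for Spred1, -0.26 for Spred2 and 0.01 for Spred3 by the authors' deposited table.

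The atypical dual-specificity phosphatases, which lack the MAP kinase binding domain, had 2 of 11 genes higher and 3 lower (median log2 fold change -0.10). Of all tested genes, 15.2% were called higher and 17.6% lower. Dusp23 was 1.91-fold higher, Dusp15 had a log2 fold change of -1.07 and Dusp26 one of -0.91 by the authors' deposited table. The other genes called, chosen for mention once their values were known, were Dusp11 at 0.19 and Dusp14 at -0.43 by the authors' deposited table. Among other brakes on receptor and Ras signalling, 2 of 10 were higher and 1 lower (median 0.14). Errfi1, an inhibitor of the EGF receptor that is itself induced by its signalling, was 2.41-fold higher by the authors' deposited table (adjusted p = 0.000869). Lrig1, which promotes loss of ErbB receptors, was 1.51-fold higher and the Ras GTPase activator gene Nf1 had a log2 fold change of -0.19 by the authors' deposited table.

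**Figure D3:**
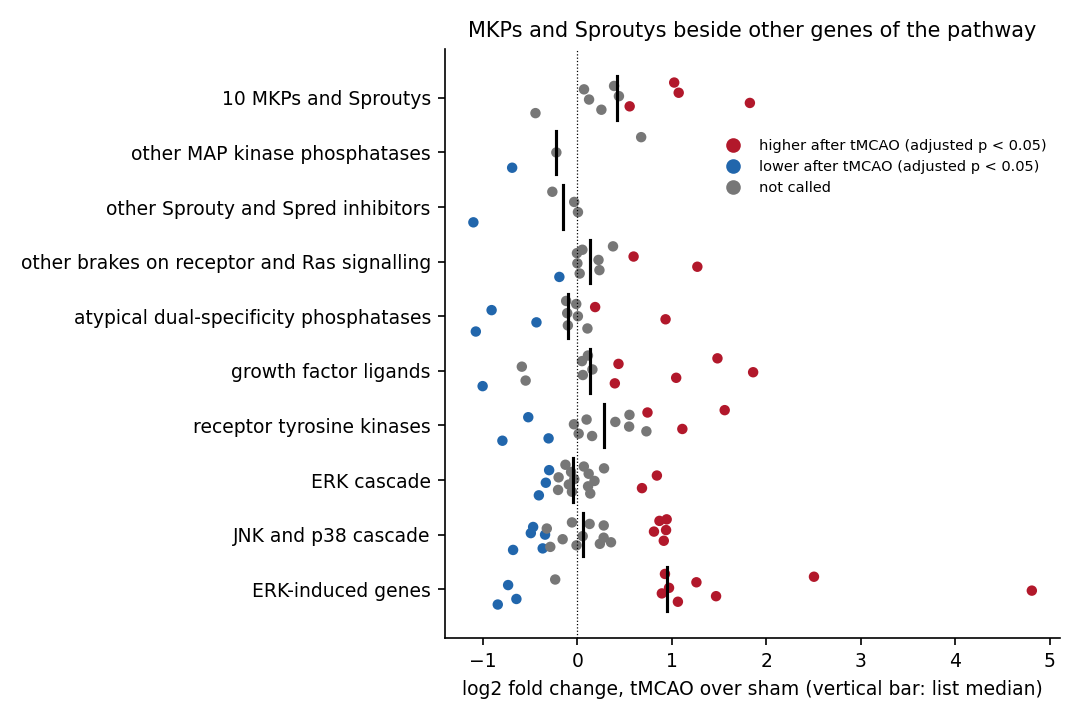
Log2 fold change, tMCAO over sham (x axis), of each tested gene of the 10-gene set and of 9 lists of related genes (rows); colours give the call at an adjusted p of 0.05 and black bars the list medians. The highest median, 0.95, belonged to the list of genes known to be induced by ERK signalling, and the kinase cascades had medians near 0. Activity of ERK was not measured.

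Upstream of the feedback genes, growth factor ligands were higher in 5 of 12 tested genes and lower in 1 (median log2 fold change 0.14). For this list and the receptors below, the shares over all tested genes were 15.2% higher and 17.6% lower. Hbegf, a ligand of the EGF receptor, was 3.64-fold higher (adjusted p = 2.44e-08), Fgf2 2.80-fold higher and Tgfa 2.07-fold higher by the authors' deposited table. Fgf9 had a log2 fold change of -1.001, Pdgfa one of 0.40 and Pdgfb one of 0.44 by the authors' deposited table, all chosen for mention once their values were known. Ereg and Areg, other ligands of the EGF receptor, carried log2 fold changes of 2.83 and 0.65 but no p-value by the authors' deposited table. Both were chosen for mention once their values were known. Receptor tyrosine kinases were higher in 3 of 14 and lower in 3 (median 0.28). The ephrin receptor gene Epha2 was 2.95-fold higher, the lymphatic and angiogenic receptor gene Flt4 was 2.16-fold higher and the neurotrophin receptor gene Ntrk2 had a log2 fold change of -0.79 by the authors' deposited table. Chosen for mention in the same way, the others called were Kdr, the main receptor for vascular endothelial growth factor, at 0.74, Fgfr3 at -0.52 and Igf1r at -0.30 by the authors' deposited table.

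Genes of the kinase cascades that these phosphatases switch off were called in both directions, with medians near 0. These calls stand beside 15.2% of all tested genes called higher and 17.6% called lower. In the ERK cascade 2 of 18 genes were higher and 3 lower (median log2 fold change -0.04). Nras was 1.61-fold higher and the adaptor gene Shc1 1.79-fold higher by the authors' deposited table. Araf at -0.30 and Braf at -0.33, chosen in the same way, were among those called lower by the authors' deposited table. The JNK and p38 cascade had 5 of 21 genes higher and 5 lower (median 0.06). Mapk12, which encodes p38 gamma, was 1.83-fold higher, Map2k3, a kinase that activates p38, was 1.93-fold higher and Map3k5 had a log2 fold change of -0.37 by the authors' deposited table. The remaining higher genes, chosen in the same way, were Map3k8 at 0.94 and the p38 substrate kinase genes Mapkapk2 at 0.81 and Mapkapk3 at 0.92 by the authors' deposited table. Map3k8 was counted here in the JNK and p38 list only, a choice made for the list, and not in the ERK cascade. The remaining lower genes, chosen likewise, were the JNK genes Mapk9 at -0.34 and Mapk10 at -0.68, Map2k6 at -0.47 and Map3k12 at -0.49 by the authors' deposited table.

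Other genes known to be induced by ERK signalling were mostly higher, with 8 of 12 called higher and 3 called lower (median log2 fold change 0.95). Over all tested genes, 15.2% were called higher and 17.6% lower. Centred on the ribosomal protein genes, Fosl1 and Myc would be the 2 called higher and Etv1, Etv4, Etv5 and Egr1 the 4 called lower. The median would be 0.055. With that centre, 331 of all 19294 tested genes would be called higher and 14972 lower. Fosl1 was 28.1-fold, Myc 5.68-fold, Ier3 2.77-fold, Ccnd1 2.40-fold and Junb 2.09-fold higher by the authors' deposited table. Ier2 had a log2 fold change of 0.97, Phlda1 one of 0.93 and Fos one of 0.90 by the authors' deposited table. The genes called lower were the 3 ETS factors of one subfamily, Etv4 with a log2 fold change of -0.84 (adjusted p = 0.00124), Etv5 with one of -0.73 (adjusted p = 0.0039) and Etv1 with one of -0.64 (adjusted p = 0.00262) by the authors' deposited table. Egr1, a serum response gene, was not called, at -0.23 (adjusted p = 0.46) by the authors' deposited table. In vertebrate embryos Etv4, Etv5, Dusp6, Il17rd and the Sprouty genes are known to be expressed together where fibroblast growth factor acts. Here Spry1 and Spry4 were higher, Etv4 and Etv5 lower, and Dusp6, Spry2 and, chosen once its value was known, Il17rd (log2 fold change -0.002, adjusted p = 0.99) were not called by the authors' deposited table.

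**Figure D4:**
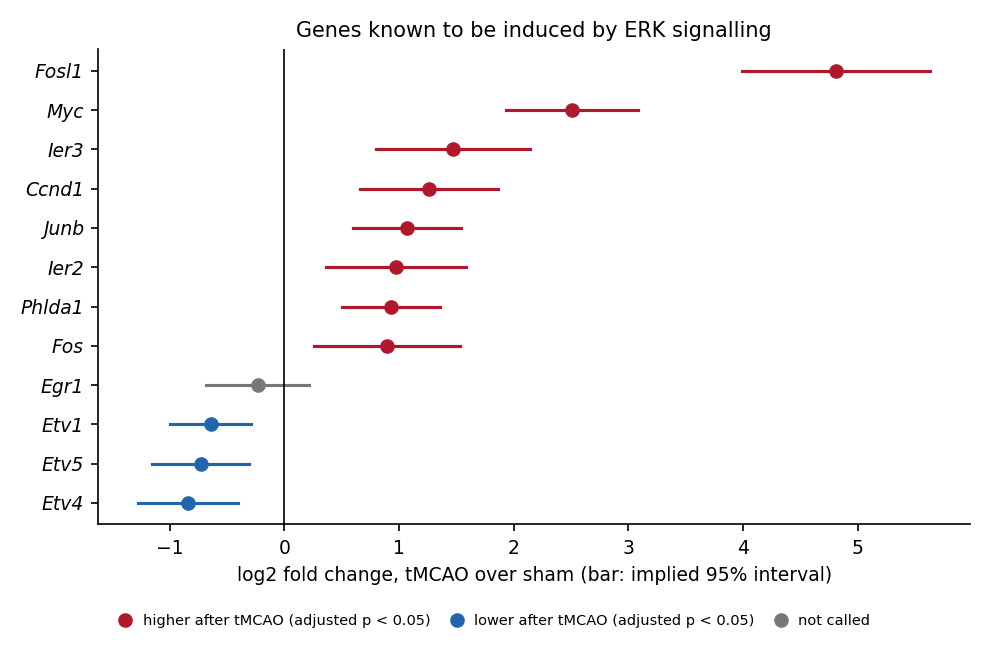
Log2 fold change, tMCAO over sham (x axis, log2 units), of 12 genes known to be induced by ERK signalling, in falling order, with bars for the implied 95% interval. Fosl1 is highest at 4.81, and Etv1, Etv5 and Etv4 lie below 0.

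Markers of several cell types differed between the same groups, and their part in the changes of the phosphatase and Sprouty genes was not tested. After tMCAO, neutrophil markers were higher in 7 of 8 tested genes (median log2 fold change 2.73) and monocyte markers in 6 of 6 (median 1.93), beside the rise of Dusp2. Of 5 T cell markers only Cd2 had a p-value, and it was not called. Endothelial markers were higher in 6 of 10 (median 0.72), fibroblast markers in 3 of 6 (median 1.09), mural cell markers in 2 of 9 (median 0.33) and astrocyte markers in 1 of 7 (median -0.01), and none of these was lower. Centred on the ribosomal protein genes, endothelial markers would be higher in 0 and lower in 2, and fibroblast markers called in 0. Mural cell markers would then be lower in 4, and astrocyte markers higher in 1 and lower in 4. With that centre, 331 of all 19294 tested genes would be called higher and 14972 lower. With the deposited centre, 15.2% of all tested genes were called higher and 17.6% lower. Neuron markers were lower in 9 of 9 (median -1.14), oligodendrocyte markers in 5 of 7 (median -0.47) and microglia markers in 5 of 7 (median -0.66), beside the lower values of Dusp8, Dusp15 and Dusp26. All 10 endothelial markers carried a p-value, but without levels per library the purity of the microvessels was not analysed here.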

How the data were processed

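RNA sequencing compared microvessels of 4 tMCAO and 4 sham libraries, grouped by title. Per the submitters' processing notes, the tools included STAR, HTSeq, DESeq2, cutadapt and bcl2fastq 2.19, on build GRCm38 (mm10), without roles or options; total RNA was depleted of ribosomal RNA, per the labels' protocols. The authors' table used here held a log2 fold change and a p-value per gene, per the file headers, and 0 columns of values per library. No other table of the authors was used, and the depth per library is unknown here. The p-value the authors deposited was taken to be already adjusted (Benjamini-Hochberg), because 3214 values recur across genes in steps. An unadjusted p was recovered from it by rank (Python 3.11.15, SciPy 1.17.1), and the implied standard error is the log2 fold change over the matching normal deviate; the recovery was tested on simulated data. The deposited log2 fold changes may be shrunken towards 0, since 8 values of size 0.143 to 0.169 each recur in 200 or more genes, all without a p-value; folds and intervals would then be too small.

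The 10 genes and all lists were chosen with earlier results of these data known. Named were the 10 genes, all genes of lists of up to 4 genes and of the list of ERK-induced genes, and the 3 with the smallest adjusted p in each other pathway list; further genes are marked where named. A gene that the rule selects is not reported here. Calls use an adjusted p under 0.05 over all 19294 tested genes. Alternatives were another reading of the p, a threshold of 0.01, other centres, protein-coding genes only and a minimum fold.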

Additional observations from a re-analysis of the deposited data

How the results depend on the processing

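The calls of the 10 genes (4 higher, 0 lower) held with the deposited p read as unadjusted, with a threshold of 0.01, centred on the best measured 10% of genes and adjusted over protein-coding genes only. Asking as well for a log2 size of at least 1 left 3, without Spry1, and 11 higher and 3 lower genes of the pathway lists, against 27 and 21. Read as unadjusted, the deposited p called 1941 genes higher and 2388 lower, against 2941 and 3391.

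Centred on the 80 ribosomal protein genes, whose median log2 fold change was 0.90 and of which 76 rose, every value lies 0.90 lower, 331 genes were called higher and 14972 lower. Dusp2 was then the 1 gene of the 10 called higher and 4 were called lower; the median of the 10 was -0.48, and the pathway lists held 4 higher and 75 lower genes. With that centre, values were -0.64 for Dusp6, -0.82 for Dusp10, -0.34 for Spry1, -0.77 for Spry2 and -0.89 for Spred3. They were -0.30 for Lrig1, -0.21 for Nras, -0.052 for Shc1, -0.025 for Mapk12, -0.083 for Mapkapk2 and -0.71 for Dusp11. For Pdgfa, Pdgfb and Kdr they were -0.50, -0.46 and -0.15. For genes called under neither centre they were -0.51 for Dusp1, -0.45 for Dusp16 and -0.22 for Dusp9. Each of these values is opposite in sign to the deposited one, which follows from lowering every value by the same 0.90. Dusp5 (0.18) and Spry4 (0.13) stayed positive but were not called. Growth factor ligands were then called higher in 1 and lower in 8, and receptor tyrosine kinases likewise in 1 and 8. The ERK cascade was called in 0 and 16, and the JNK and p38 cascade in 0 and 15. Atypical dual-specificity phosphatases were called in 0 and 10, and other brakes on receptor and Ras signalling in 0 and 8. Genes of these last lists reported above as higher thus lost that call. Centred on the best measured genes, Il17rd turned to 0.017.

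No paired analysis was possible because the groups share no replicate numbers and no values per library were analysed here. For the same reason, leaving out each replicate was not run. Without depth per library, precision rests on the implied standard errors, 0.13 to 0.35 for the 10 genes.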
